A study of Rattus norvegicus with 42 samples.

Results

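The comparison described here sets lungs of 5 rats that had inhaled crystalline silica against lungs of 6 rats that had inhaled air, all on a regular diet and all sampled 9 months after the exposure. These 11 animals were chosen by their labelled diet, exposure and time point, and they are 11 of the 42 rats of the series. All were male Fischer rats (F344/DuCrl), an inbred strain, bought at 3 months of age. They ate a diet with 18% of its energy as fat for 2 weeks before the exposure and to the end. The silica rats inhaled crystalline silica in whole-body chambers at 15 mg/m3, 6 hours daily over 5 days, and the control rats inhaled air. The lungs were sampled long after inhalation had stopped, and each library came from a piece of whole lung of 1 rat. The series also holds rats on a high-fat diet (60% of energy as fat) and rats sampled at 3 months, which serve below only to show where the effect differed.

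Inhaled crystalline silica is cleared poorly. Alveolar macrophages engulf the particles, their lysosomes are damaged, and the NLRP3 inflammasome, interleukin 1 and chemokines that draw in neutrophils and monocytes follow. In rats the persisting particles are known for chronic alveolitis, enlarged type 2 cells that overproduce surfactant, lymphoid infiltrates and, with time, fibrosis. Libraries of whole lung mix all of these cells, and each level is relative to the library total. Fewer cells of a type, less RNA per cell and more RNA from other cells therefore cannot be told apart in any value below.

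The 11 libraries held between 4333672 and 7676974 counts, and the ranges of the groups overlapped. Markers of lung cells were present in all 11 rats: the surfactant gene Sftpc, which marks alveolar type 2 cells, lay between 6115 and 10629 CPM (the count relative to the library total after composition scaling). The share of counts on Rnr1 and Rnr2, the symbols of 2 ribosomal RNA genes, differed between the groups. It was 0.375% in the lowest air rat, 0.997% in the median and 2.29% in the highest, and it was 2.88%, 2.60%, 3.76%, 3.76% and 5.35% in silica rats 1 to 5. No silica rat reached down to an air rat. The means were 1.22% ± 0.70 (SD, n = 6) and 3.67% ± 1.07 (n = 5), 2.45 percentage points apart (two-sided exact permutation p = 0.0022, the smallest that 462 splits allow). The kit removes ribosomal RNA before sequencing, so this share can vary with that step as well as with the tissue. High-fat rats of the same time point lay between 4.62% and 7.19% in air and between 7.29% and 7.85% with silica, again without overlap. Because the shares of air and silica rats do not overlap on either diet at 9 months, every result below moves with share and exposure. Values are also given from a fit that carries the share as a covariate.

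**Figure D1:**
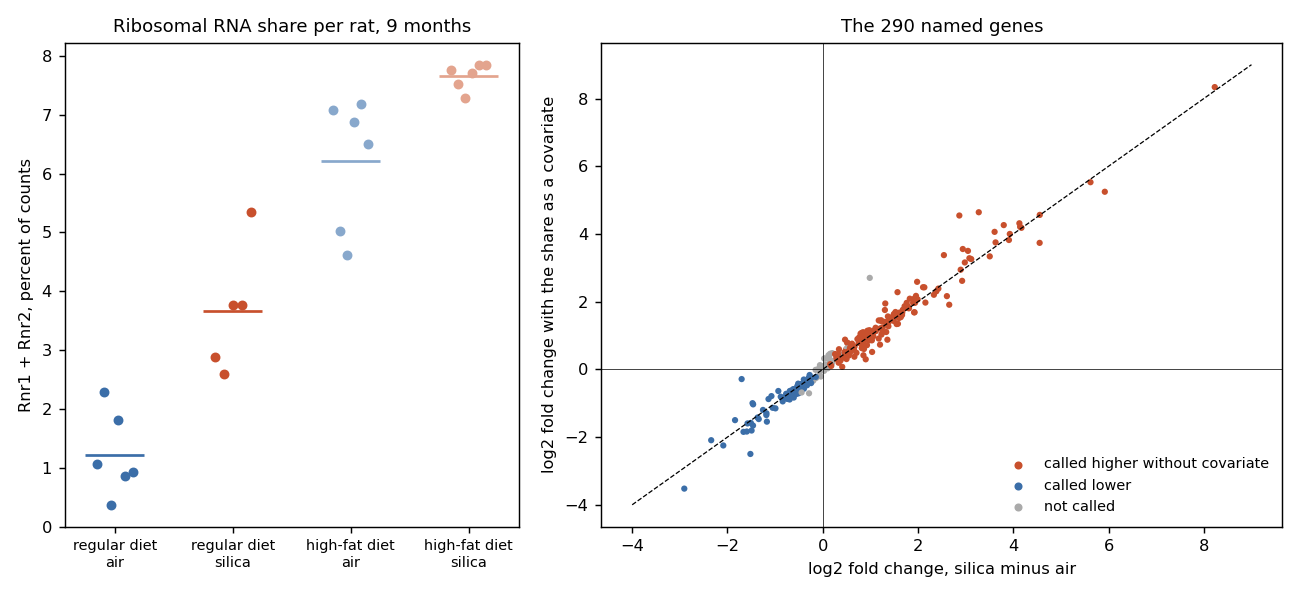
Left, counts on Rnr1 and Rnr2 as a percent of all counts in each 9-month rat (points) with group means (lines): the air rats of the regular diet lie between 0.375% and 2.29% and the silica rats between 2.60% and 5.35%. Right, the log2 fold change of the named genes without (horizontal) and with (vertical) that share as a covariate, with equal values on the dashed line.

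At 9 months silica was accompanied by a broad shift of the lung transcriptome. Genes of innate defence, macrophages, lysosomes, T cells and cell division were higher, and genes of endothelium, alveolar type 1 cells, fibroblasts and smooth muscle were lower. Of 15276 genes tested, 6885 (45.1%) were called at an adjusted p below 0.05, 3735 higher with silica (24.5%) and 3150 lower (20.6%). The rises were larger than the falls, with 600 genes at least 2-fold higher and fewer at least 2-fold lower. The median size of a called change was 0.46 on the log2 scale, and the median change of all tested genes was 0.0045. In 3641 genes (23.8% of those tested) no silica rat overlapped an air rat, 2144 higher and 1497 lower. These shares are the background for every count of list members below. With total counts in place of composition scaling 7262 genes were called, 2677 higher and 4585 lower, and the median of all genes moved to -0.09 on the log2 scale. When the fit carried the ribosomal RNA share 3870 genes were called, 2139 higher and 1731 lower. Of the 6885 genes, 6858 kept their sign in that fit, their median change was of the same size (0.46), and their standard errors were 1.63 times as large in the median.

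The largest rise was in Lpo, which encodes lactoperoxidase, a secreted enzyme that turns thiocyanate and hydrogen peroxide into an antimicrobial oxidant. Lpo was nearly silent in air, with 0 CPM in the lowest rat, 0.20 in the median and 0.94 in the highest (16 counts in all 6 rats), and it stood at 101, 157, 208, 112.5 and 108 CPM in the silica rats. The groups lay far apart, with a log2 fold change of 8.23 ± 0.44 (SE, here and below from the fit; adjusted p = 2.3e-13). Slc26a4 encodes pendrin, which moves thiocyanate and iodide to the airway surface, and had 5.71, 8.98 and 19.1 CPM in the lowest, median and highest air rat against 222, 306, 319, 219 and 190 CPM with silica. Its log2 fold change was 4.56 ± 0.27 (adjusted p = 1.1e-12), again without overlap. The hydrogen peroxide source of this system, the dual oxidase Duox1, rose from a median of 13.3 CPM to 51.6, 63.2, 37.3, 53.2 and 42.1 CPM (1.92 ± 0.17). Its maturation factor Duoxa1 rose by 1.38 ± 0.19. The epithelial glutathione peroxidase Gpx2 was at 0.14 ± 0.08 (adjusted p = 0.14). Of 5 tested genes of the oxidase and pendrin list 4 rose, with a list median of 1.92.

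Secreted antimicrobial and acute-phase proteins rose as a group, 16 of 20 tested and 0 lower, with a median of 1.55. Bpifb1, a lipid-binding airway defence protein, rose by 4.17 ± 0.39 from a median of 3.46 CPM in air to between 57.6 and 113.8 CPM. Lcn2, which starves bacteria of iron by binding siderophores, lay between 12.4 and 15.5 CPM in air and at 56.4, 53.4, 68.6, 45.5 and 32.5 CPM with silica (1.94 ± 0.16, adjusted p = 5e-10). Every silica rat was above every air rat. Chi3l1, a chitinase-like protein of macrophages and epithelium, rose by 2.33 ± 0.11, and the epithelial immunoglobulin carrier Pigr by 1.11 ± 0.07. The endotoxin-binding protein Lbp rose by 1.55 ± 0.11. S100a9, a calcium-binding protein of neutrophils and monocytes, rose by 2.66 ± 0.28, with silica rat 3 far above the other silica rats at 1111 CPM against 390 to 575.

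Spp1, Retnla and Chia were also among the genes with the largest rises. Spp1, which encodes the secreted matrix protein and cytokine osteopontin, had 1.75, 3.69 and 10.3 CPM in the lowest, median and highest air rat and 169, 285, 319, 301 and 249 CPM with silica. The rise was 5.92 ± 0.34 on the log2 scale (adjusted p = 6.7e-13) and the groups did not overlap. Retnla, a cysteine-rich secreted protein induced by interleukin 4 and interleukin 13, went from a median of 5.81 CPM to 291, 412, 356, 284 and 236 CPM (5.62 ± 0.26). Chia, which encodes acidic mammalian chitinase, was abundant to begin with, at a median of 121.4 CPM in air, and reached 1773, 2740, 3395, 1795 and 1254 CPM (4.13 ± 0.23). Again no silica rat overlapped an air rat for either gene. Irg1, the itaconate-producing enzyme of activated macrophages, rose by 4.14 ± 0.39, Tmem45b by 3.91 ± 0.19, Kng1, which encodes kininogen, by 3.28 ± 0.31, and Ubd, a ubiquitin-like protein induced by interferon gamma and tumour necrosis factor, by 3.12 ± 0.32. Esr1, which encodes oestrogen receptor alpha, lay in a narrow band from 5.53 to 7.57 CPM in the 6 air rats and at 66.5, 115.4, 103, 72.8 and 57.8 CPM with silica. This rise of 3.61 ± 0.16 had an adjusted p of 1.5e-14.

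**Figure D2:**
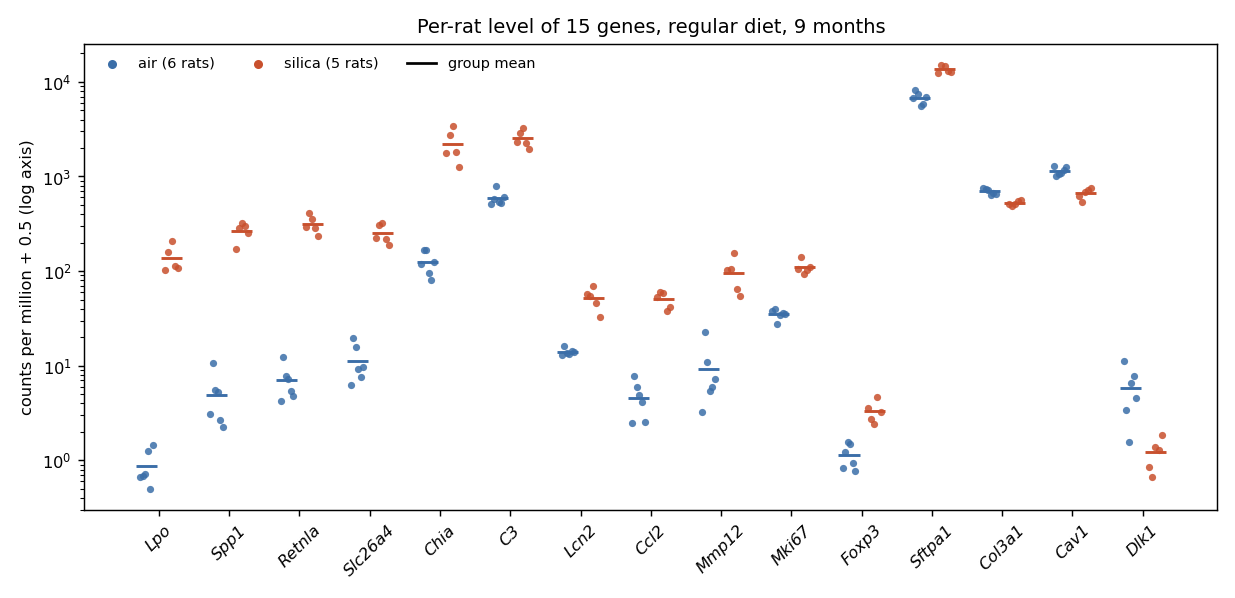
Level of 15 genes in each rat on a log axis, as CPM plus 0.5, with group means as lines. Air rats and silica rats are separate for every gene shown except Dlk1, whose highest silica rat (1.35 CPM) lies above its lowest air rat (1.08 CPM).

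Chemokines that recruit neutrophils and monocytes rose. The ELR chemokines carry a glutamate-leucine-arginine motif before their first cysteines and act through Cxcr2. The list used here also holds the platelet chemokine Pf4, which lacks this motif. Of the 6 genes of the list tested, 4 rose and 0 fell, with a median of 0.59. Cxcl6 rose most, from a median of 3.02 CPM in air (highest rat 5.41) to 61.6, 35.1, 70.3, 32.2 and 27.6 CPM (3.80 ± 0.27, adjusted p = 3.6e-11). Cxcl2 rose by 1.31 ± 0.29, Cxcl1 by 0.77 ± 0.14 and Cxcl3, the most abundant of them with a median of 890 CPM in air, by 0.42 ± 0.09. The call of Cxcl3 was lost with the ribosomal RNA covariate, and the ranges of Cxcl1 and Cxcl2 overlapped between groups. The platelet chemokines Pf4 (0.39 ± 0.34) and Ppbp (0.13 ± 0.62) were not called, and silica rat 1 was apart from the other silica rats in both.

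Among the CC chemokines, Ccl2, the main attractant of monocytes, had 1.96, 4.03 and 7.21 CPM in the lowest, median and highest air rat and 52.6, 59.8, 57.7, 37.3 and 41.0 CPM with silica, a rise of 3.63 ± 0.23 (adjusted p = 4.9e-12) without overlap. Ccl7, which also attracts monocytes, rose by 3.93 ± 0.34, the macrophage inflammatory protein Ccl3 by 1.24 ± 0.12 and its relative Ccl9 by 1.76 ± 0.22. In all, 8 of 15 CC chemokines rose and 2 fell. Of 9 other chemokines of the CXC and CX3C kinds 7 rose and 1 fell, with a median of 1.06. They include Cx3cl1, the membrane-bound attractant fractalkine (1.06 ± 0.08), Cxcl17 (0.85 ± 0.08), the scavenger receptor chemokine Cxcl16 (0.57 ± 0.07) and the T cell attractant Cxcl9 (1.5 ± 0.21). Among 16 receptors 8 rose and 3 fell (6 and 1 with the covariate). Cxcr3, which reads Cxcl9, rose by 1.58 ± 0.20, Cxcr2 by 1.20 ± 0.17 and Ccr1 by 0.80 ± 0.11.

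Interleukins and inflammasome genes rose in 10 of 20 and fell in 1. Nlrp3, the sensor of lysosomal damage, had a median of 22.4 CPM in air (19.5 to 24.8) and 38.6, 45.5, 36.0, 38.9 and 35.2 CPM with silica, a rise of 0.81 ± 0.08. The interleukin 1 receptor antagonist Il1rn rose by 1.79 ± 0.10 and the macrophage growth factor Csf1 by 1.04 ± 0.09. The alarmin Il33, a nuclear cytokine of barrier cells, fell from a median of 399 CPM to 217, 188, 252, 269 and 292 CPM (-0.74 ± 0.08, adjusted p = 6.3e-08). Every silica rat lay below every air rat for Il33. Il6, Il10, Il17a and Tnf fell below the filter on low counts and were not tested. Of 20 signalling brakes and NF-kB genes 8 rose and 3 fell (4 and 1 with the covariate), led by Tnfaip2 (1.61 ± 0.09), Birc3 (0.82 ± 0.10), Bcl3 (0.76 ± 0.17) and Nfkb2 (0.50 ± 0.08, not called with the covariate).

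Neutrophil genes were higher in silica lungs, 7 of 8 tested, with a median of 1.12. The list's summed level was 128.3 to 405 CPM in the air rats and 561 to 1456 CPM in the silica rats. S100a9, which monocytes also express, averaged 99.5 CPM in air and 624 CPM with silica, a large part of that sum. Air rat 2 and silica rat 3 had the highest sums and stood apart in S100a9, at 215.5 and 1111 CPM. Cd177, a neutrophil surface protein, rose by 1.96 ± 0.13 and Csf3r, the receptor of granulocyte colony-stimulating factor, by 1.04 ± 0.20. With the ribosomal RNA covariate 3 of the 8 remained called higher, Cd177 among them and Csf3r not. The granule enzymes of immature neutrophils Mpo, Elane, Ctsg and Prtn3 were below the filter in this lung tissue.

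Genes of lipid-handling macrophages rose. The list of lipid-laden macrophages had 20 tested members, of which 16 rose and 1 fell, with a median of 0.95, and 15 of the rises had no overlap between groups. The summed level of the list was 4521 to 6237 CPM in the air rats and 8821 to 11371 CPM in the silica rats. Gpnmb, a lysosomal glycoprotein, had 389, 486 and 620 CPM in the lowest, median and highest air rat and 1524, 2018, 1897, 1757 and 1524 CPM with silica (1.79 ± 0.11). The fatty acid carrier Fabp4 rose by 2.39 ± 0.16, the cholesterol carrier Npc2 by 1.21 ± 0.09, and Lgals3, which marks ruptured lysosomes, by 1.07 ± 0.14. Trem2, a lipid receptor, was higher by 0.58 ± 0.13 with overlapping groups, and its call was lost with the covariate. Of 11 alveolar macrophage genes 9 rose and 1 fell, among them Cd68 (1.68 ± 0.09), Itgax (0.75 ± 0.12) and the sterol exporter Abcg1 (0.49 ± 0.08). Marco, a particle receptor, had 4 counts in all air rats together and 29 with silica, so its level is close to the limit of these libraries.

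Monocyte and interstitial macrophage genes were called higher in 8 of 12 and lower in 2 (5 and 2 with the covariate). The inhibitory Fc receptor Fcgr2b rose by 1.95 ± 0.13 and Cd14 by 1.02 ± 0.11. The haemoglobin scavenger Cd163, found on resident interstitial macrophages, moved the other way, from a median of 24.7 CPM to 8.66, 10.7, 10.3, 9.23 and 14.1 CPM (-1.18 ± 0.15). Its groups did not overlap. Genes of alternative activation, which include Retnla, Chia and Chi3l1, rose in 10 of 14 and fell in 3 (7 and 1 with the covariate). The 3 that fell were Cd163, the interleukin 4 receptor chain Il4r (-0.33 ± 0.12) and the eosinophil attractant Ccl24 (-0.93 ± 0.27). The calls of Il4r and Ccl24 were lost with the covariate, and that of Il4r also without air rat 5, silica rat 1 or silica rat 3. Scavenger and pattern receptors rose in 10 of 17 and fell in 1 (6 and 1 with the covariate): Msr1 (0.94 ± 0.13), Olr1 (0.83 ± 0.09) and Clec4e (1.36 ± 0.19) rose, and Colec12, a collectin of endothelium, fell by 0.62 ± 0.08.

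Lysosome and proton pump genes rose in 24 of 28, each of the 24 without overlap, and 2 fell. The list median was 0.59. The cysteine protease Ctsh went from a median of 527 CPM to 1259, 1704, 1634, 1379 and 1180 CPM (1.46 ± 0.10, adjusted p = 7.2e-12). The proton pump subunit Atp6v1b2 rose by 1.08 ± 0.08 and progranulin, encoded by Grn, by 0.95 ± 0.07. The phagocyte oxidase, which makes superoxide at the phagosome, rose in 6 of 7 tested subunits and fell in 1. Ncf1 rose by 1.81 ± 0.12, Cyba by 0.99 ± 0.10 and the small GTPase Rac2 by 0.87 ± 0.07. Nox4, the constitutive oxidase of mesenchymal and endothelial cells, was the gene that fell (-0.54 ± 0.10).

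Of 25 oxidative stress genes 12 rose and 4 fell (8 and 2 with the covariate). Hmox1, which degrades haem, had the smallest adjusted p of the named genes: 25.9, 29.8 and 33.5 CPM in the lowest, median and highest air rat and 103, 120, 112.07, 111.99 and 105 CPM with silica (1.90 ± 0.07, adjusted p = 6.8e-16). Slc7a11, the cystine importer, rose by 2.90 ± 0.26, sulfiredoxin Srxn1 by 1.83 ± 0.12 and mitochondrial superoxide dismutase Sod2 by 1.38 ± 0.08. Nqo1 (0.10 ± 0.08) and Gclm (0.04 ± 0.17), which are textbook targets of Nrf2 like Srxn1 and Slc7a11, were not called. The glutathione transferase Gstp1 fell by 0.52 ± 0.07. Of 17 DNA damage and growth arrest genes 7 were higher and 3 lower. This count fell to 1 higher and 0 lower with the covariate, to 2 higher and 5 lower with total counts, and to 4 higher without air rat 6, silica rat 2 or silica rat 3. Gdf15 (0.93 ± 0.22), Gadd45g (0.60 ± 0.14) and Ccng1 (0.28 ± 0.08) were higher and Sesn1 lower (-0.27 ± 0.07). The calls of Gdf15, Gadd45g and Sesn1 were lost with the covariate and that of Ccng1 with total counts.

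Complement genes rose in the classical and alternative pathways and at the step they share. C3, cleaved at the point where the pathways meet, had 513, 559 and 797 CPM in the lowest, median and highest air rat and 2313, 2904, 3281, 2266 and 1962 CPM with silica, a rise of 2.11 ± 0.11 (adjusted p = 2.4e-13). Of 19 components tested 15 rose and 1 fell, 13 of the rises without overlap, with a median of 0.66. In the classical pathway the chains of C1q rose by 0.83 ± 0.08 (C1qa), 0.63 ± 0.09 (C1qb) and 0.50 ± 0.09 (C1qc). The proteases C1s (0.87 ± 0.10), C1r (0.29 ± 0.07) and C1rl (0.51 ± 0.14), C2 (1.30 ± 0.12) and C4b (1.99 ± 0.11) rose as well, C1r without a call once the covariate was added. C4b is a near-identical copy of C4a, which fell below the filter, so the split of reads between them is uncertain. In the alternative pathway the protease Cfb rose by 1.56 ± 0.09 and properdin, Cfp, by 0.55 ± 0.09, and adipsin, Cfd, was at 0.16 ± 0.19. In the lectin pathway Masp1 fell by 0.62 ± 0.11. Of the terminal components C5 (0.66 ± 0.09) and C6 (0.79 ± 0.14) rose, and C7 (0.03 ± 0.07) and C9 (0.99 ± 0.48) were not called. Of the soluble brakes, Cfi rose by 3.05 ± 0.20 and the C1 inhibitor Serping1 by 1.17 ± 0.15. Of 13 receptors and brakes 9 rose and 1 fell, with Itgam at 1.93 ± 0.12 and the anaphylatoxin receptor C5ar1 at 1.25 ± 0.09.

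Of 10 class II genes 9 rose and 0 fell, all 9 without overlap, with a median of 1.02: RT1-Bb by 1.64 ± 0.11, RT1-Da by 1.01 ± 0.07, RT1-Ba by 0.87 ± 0.07 and the invariant chain Cd74 by 0.99 ± 0.07. RT1 genes have close paralogs, so reads may be divided among them. Dendritic cell genes rose in 6 of 12 and fell in 1. Ccl22, which attracts regulatory T cells, rose by 2.93 ± 0.44 from 17 counts in all air rats, and Xcr1 and Clec9a, markers of cross-presenting dendritic cells, rose by 1.72 ± 0.26 and 1.37 ± 0.23 with the transcription factor Irf8 (1.03 ± 0.13). Of 20 T cell genes 18 rose and 0 fell (12 with the covariate), with a median of 0.78, while 6 of the rises were free of overlap. Foxp3, the master regulator of regulatory T cells, stood at 0.27, 0.58 and 1.08 CPM in the lowest, median and highest air rat and at 3.12, 2.24, 1.95, 4.22 and 2.71 CPM with silica (2.15 ± 0.33, adjusted p = 8.6e-06). All 5 silica rats exceeded all 6 air rats. The checkpoint gene Ctla4 rose by 1.98 ± 0.36 and the costimulator Icos by 1.57 ± 0.18, whereas the pan-helper gene Cd4 rose by 0.45 ± 0.08.

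Of 11 natural killer and cytotoxic genes 4 fell and 1 rose, with a median of -0.24 and overlapping groups in each. Gzma fell by 0.50 ± 0.12, perforin, Prf1, by 0.40 ± 0.13, Nkg7 by 0.33 ± 0.10 and Gzmk by 0.32 ± 0.11 (not called with the covariate), and the activating receptor Klrk1 rose by 0.34 ± 0.12 (not called without air rat 2 or silica rat 2, with total counts or in the fit of the 2 groups alone).

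Of 12 tested B cell genes 2 rose and 1 fell, with a median of 0.09 (1 and 1 with the covariate, with a median of 0.32). The summed level of the list was 134.7 to 192 CPM in the air rats and 116 to 164 CPM in the silica rats. Fcer2, the low-affinity IgE receptor, rose by 1.26 ± 0.29 and the coactivator Pou2af1 by 0.47 ± 0.16, and Bank1, which is also expressed in myeloid cells, fell from a median of 93.0 CPM to between 48.1 and 60.9 CPM (-0.77 ± 0.08). The call of Fcer2 was lost with the covariate and that of Pou2af1 with total counts and without air rat 4 or silica rat 3. Blk, Cd79b, Cd22, Spib, Cr2, Fcrla, Ms4a1 and Pax5 were not called, with log2 fold changes from -0.37 (Cd79b) to 0.51 (Blk). Cd79a was below the filter.

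Germinal centre and follicle genes were called higher in 4 of 12 and lower in 2 (1 and 1 with the covariate, 1 and 2 with total counts). Cxcl13, the chemokine that draws B cells into follicles, was at 0 to 1.63 CPM in air (median 0.65) and at 6.41, 6.37, 1.65, 7.12 and 2.51 CPM with silica (2.54 ± 0.59, adjusted p = 9.6e-04). The groups did not overlap, although silica rat 3 lay just above the highest air rat. Bcl6 (0.33 ± 0.11), Cxcr5 (0.52 ± 0.20) and Ccl19 (1.08 ± 0.43) were higher, and without air rat 3, air rat 6, silica rat 1 or silica rat 2 the count of rises was 2. Ccl21, made by lymphatic vessels and lymphoid stroma, fell by 0.55 ± 0.09 and Rgs13 by 1.18 ± 0.35. Ccr7, Ltbr, Cr2, Tnfsf13b, Mybl1 and S1pr2 were not called and lay between -0.04 (Tnfsf13b) and 0.20 (Ccr7). Plasma cell genes rose in 10 of 13 and fell in 0, with a median of 0.52. Mzb1, a chaperone of antibody assembly, rose from a median of 2.2 CPM (highest air rat 3.46) to 5.19, 6.37, 5.84, 5.54 and 4.25 CPM (1.30 ± 0.22). Derl3 rose by 1.34 ± 0.12, Irf4 by 0.97 ± 0.16, Creld2 by 0.52 ± 0.08 and Xbp1 by 0.32 ± 0.05. Secretory epithelium and macrophages also use several of these endoplasmic reticulum and transcription factor genes.

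Mast cell genes had few counts. Of 8 tested, 5 rose and 2 fell. The granule protease genes Cpa3 (2.61 ± 0.29), Mcpt2 (3.08 ± 0.42) and Tpsb2 (2.43 ± 0.38) and the IgE receptor chain Ms4a2 (2.13 ± 0.32) rose, each without overlap, from 9 to 29 counts in the 6 air rats together. Mcpt2 was at 0 to 0.65 CPM in air and at 1.04, 2.76, 1.95, 3.30 and 1.93 CPM with silica. Kit (-0.60 ± 0.09) and Gata2 (-0.57 ± 0.11) fell. Both were far more abundant, with air medians of 275 and 126 CPM, and endothelium expresses them as well. Without air rat 4 or silica rat 3, or in the fit of the 2 groups alone, 3 genes were called higher and with no filter on low counts 9.

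**Figure D3:**
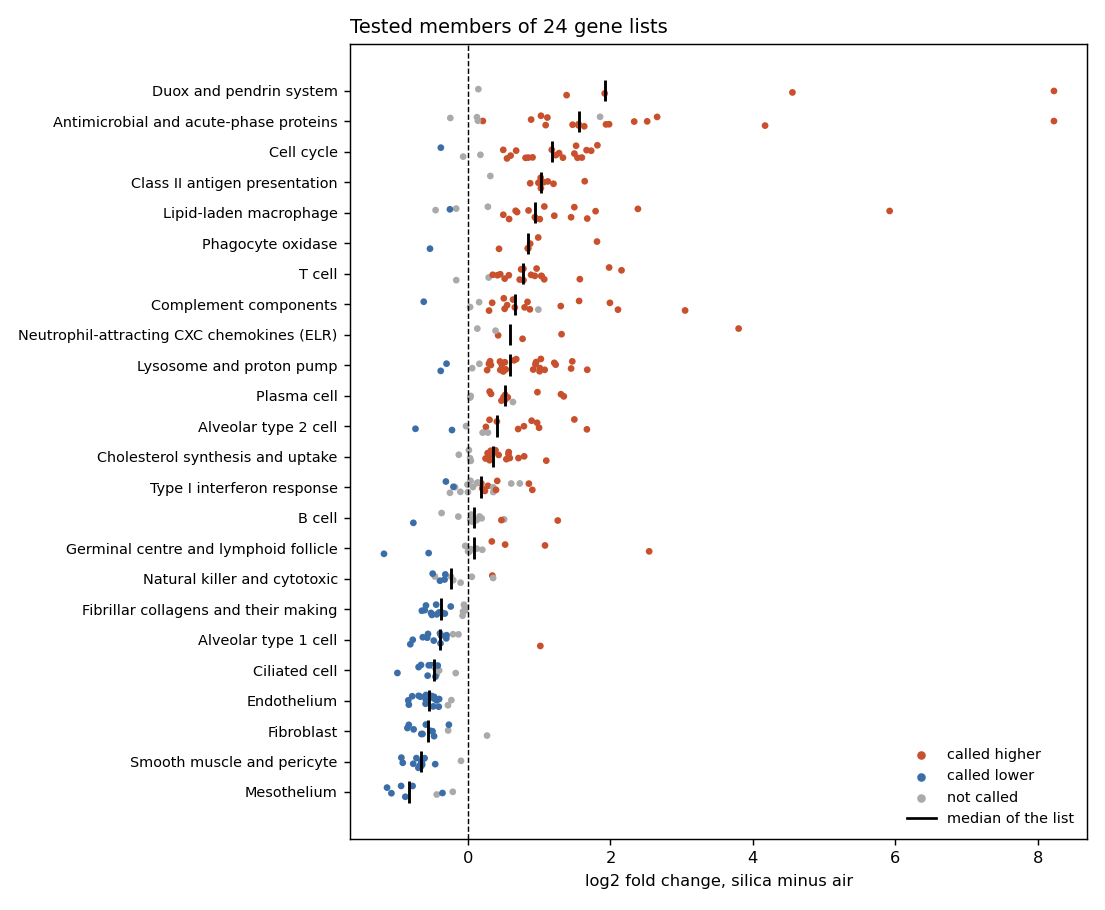
Log2 fold change (silica minus air) of the tested members of 24 gene lists, 1 point per gene, with list medians as bars and the median of all genes as the dashed line. Defence, macrophage, T cell and cell cycle lists lie to the right and type 1 cell, ciliated, endothelial, fibroblast, smooth muscle and mesothelial lists to the left.

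The 2 alveolar epithelial cell types differed in direction. Type 2 cells make surfactant and are the progenitors of the flat type 1 cells that form the gas exchange surface. Of 15 type 2 genes 10 rose and 2 fell, with a median of 0.40, and the summed level of the list was 18437 to 26746 CPM in the air rats and 30280 to 36352 CPM in the silica rats. Surfactant protein A, Sftpa1, rose from a median of 6846 CPM to 12311, 15015, 14694, 13184 and 12564 CPM (1.00 ± 0.10). This 1 gene gave the largest part of the rise in the summed level. The mucin Muc1 rose by 1.67 ± 0.10, the surfactant lipid enzyme Lpcat1 by 0.89 ± 0.08, the surfactant protease Napsa by 0.97 ± 0.08 and the fatty acid carrier Fabp5, which macrophages also express, by 1.49 ± 0.14. Sftpc was not called (0.20 ± 0.11, adjusted p = 0.14), as 1 of 3 genes of the list without a call, and Il33 was 1 of the 2 that fell. Of 14 type 1 genes 11 fell and 1 rose, 10 of the falls without overlap, with a median of -0.39. Cav1, the caveolar coat protein that endothelium also expresses, had 1007, 1132 and 1284 CPM in the lowest, median and highest air rat and 620, 543, 687, 726 and 761 CPM with silica (-0.78 ± 0.08). Rtkn2 fell by 0.81 ± 0.08 and Hopx by 0.57 ± 0.06. The type 1 gene that rose was the tight junction gene Cldn18, also present in type 2 cells, by 1.01 ± 0.09.

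Injury-associated epithelial genes were called higher in 6 of 14 and lower in 3 (3 and 0 with the covariate). Cldn4 rose by 1.53 ± 0.21 and Plaur, the urokinase receptor, by 1.23 ± 0.14, and the keratins Krt7 (-0.30 ± 0.07) and Krt19 (-0.36 ± 0.09) fell, with both keratin calls lost under the covariate. In the airways 5 of 14 secretory and mucin genes rose and 2 fell, and 8 rose without air rat 4. The membrane mucins Muc20 (2.94 ± 0.27) and Muc4 (2.98 ± 0.31) rose from medians below 2 CPM in air. The club cell gene Scgb1a1 was not called (-0.20 ± 0.15, adjusted p = 0.30), and Scgb3a2 was lower by 0.69 ± 0.22, a call lost with the covariate. Ciliated cell genes fell in 9 of 13, with a median of -0.47. Among them were Tppp3 (-0.70 ± 0.10), Dynlrb2 (-0.99 ± 0.19), Dnai1 (-0.66 ± 0.20) and the axonemal dynein Dnah9 (-0.52 ± 0.17). The count varied with the fit: 2 fell with the covariate, 5 in the fit of the 2 groups alone or without air rat 2, 4 without air rat 3 or silica rat 3, and 3 without silica rat 2 or silica rat 4.

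Vascular and stromal genes fell together. Of 20 endothelial genes 18 fell and 0 rose, 14 without overlap, with a median of -0.55. With the covariate 18 still fell and the median was -0.71. Ptprb, the vascular phosphatase that restrains Tie2, had 1750, 2109 and 2628 CPM in the lowest, median and highest air rat and 1141, 1079, 1356, 1534 and 1608 CPM with silica (-0.67 ± 0.10). The groups did not overlap. The endothelin receptor Ednrb fell by 0.60 ± 0.08, the vascular endothelial growth factor receptor Flt1 by 0.57 ± 0.08 and the tip cell peptide Apln by 0.84 ± 0.13. Of 8 lymphatic genes 6 fell (4 with the covariate), among them Flt4 (-0.51 ± 0.09), Lyve1 (-0.48 ± 0.09) and Pdpn (-0.38 ± 0.07), which type 1 cells also express. Of 13 smooth muscle and pericyte genes 12 fell and 0 rose, with a median of -0.66: Myh11 by 0.70 ± 0.11, Tagln by 0.73 ± 0.09, Notch3 by 0.68 ± 0.09 and Cspg4 by 0.66 ± 0.09.

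Fibroblast genes fell in 10 of 12, with 0 higher and a median of -0.56. Pdgfra, the receptor of alveolar fibroblasts, went from a median of 314 CPM to 171, 170, 181, 196 and 226 CPM (-0.64 ± 0.09), and Itga8 fell by 0.76 ± 0.08, Inmt by 0.85 ± 0.12 and Macf1 by 0.48 ± 0.06. Macf1, which many cell types express, averaged 6540 CPM in air and made up most of the summed level of the list. Mesothelial genes fell in 6 of 8, with a median of -0.83 and overlapping groups in each, among them Gpm6a (-1.08 ± 0.30), Muc16 (-1.14 ± 0.33) and Upk1b (-0.88 ± 0.33). None of these mesothelial calls held with the covariate, and 3 of the 8 were called without air rat 1, silica rat 1 or silica rat 2, and with DESeq2.

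Other tissue carried in the lung pieces varied between rats. The summed level of cardiac and striated muscle genes ran from 30.7 to 980 CPM in air and from 27.7 to 593 CPM with silica. Of 14 tested genes 1 was higher and 0 lower, but with the covariate 11 were lower, with a list median of -3.19. Air rats 2 and 4 had the highest cardiac sums (980 and 470 CPM) and the highest ribosomal RNA shares (2.29% and 1.82%) of their group. Air rat 3 had the lowest of both (30.7 CPM and 0.375%). The silica rats were less regular, with 593 CPM at a share of 2.88% in rat 1 and 162 CPM at 5.35% in rat 5. Erythroid genes summed to 1374 to 2731 CPM in the air rats and 1069 to 4134 CPM in the silica rats, with 0 of 7 called. The part of these tissues in the results above, and in the values given with the covariate, was not tested.

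**Figure D4:**
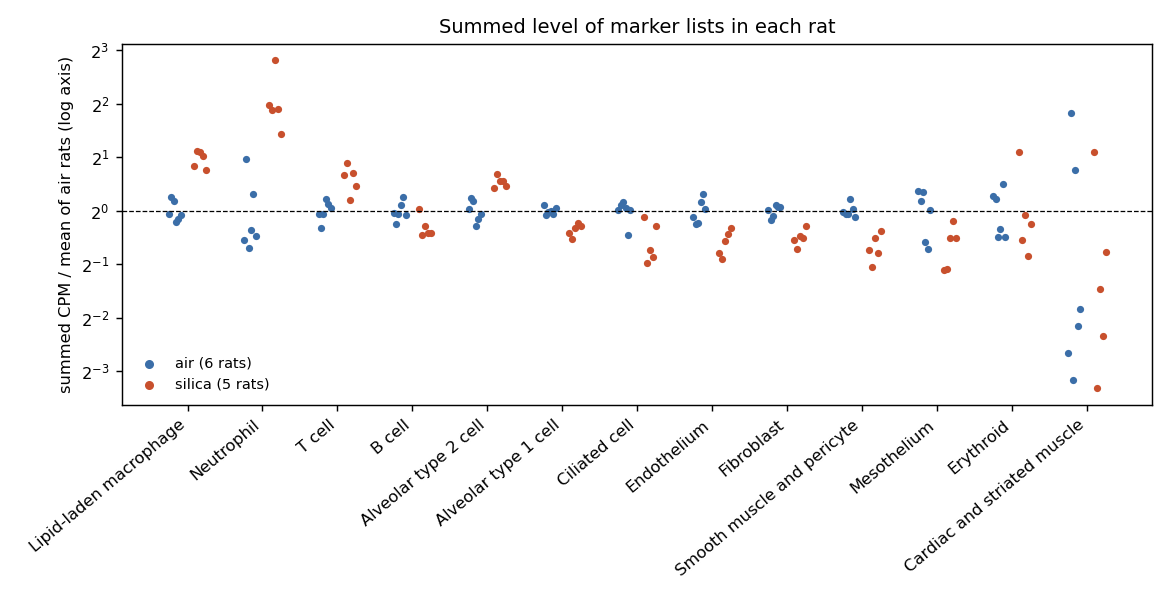
Summed CPM of 13 marker lists in each rat, divided by the mean of the air rats, on a log axis. Silica rats lie above every air rat for the lipid-laden macrophage and type 2 lists and below every air rat for the type 1, endothelial, fibroblast and smooth muscle lists, while the cardiac list spreads widely in both groups. A few abundant genes weigh most in some sums, such as Macf1 in the fibroblast list and Sftpa1 and Sftpc in the type 2 list.

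No gene of the collagen list was called higher. The list does not hold every collagen: Col16a1, outside it, was also called in this comparison, and its silica effect was 1.15 larger at 9 than at 3 months. Of 17 collagen and collagen-processing genes, fibrillar and other collagens together, 12 fell and 0 rose, with a median of -0.38. Col3a1 lay between 639 and 764 CPM in air (median 689) and at 513, 487, 511, 552 and 561 CPM with silica (-0.41 ± 0.05, adjusted p = 2.9e-07). No silica rat reached an air rat. Col5a2 (-0.52 ± 0.06), Col5a1 (-0.59 ± 0.08), Col6a1 (-0.45 ± 0.08), Col6a3 (-0.51 ± 0.09), Col12a1 (-0.33 ± 0.06) and Col14a1 (-0.65 ± 0.22) fell. So did the crosslinking enzymes Loxl4 (-0.44 ± 0.09), Loxl2 (-0.61 ± 0.14), Loxl1 (-0.38 ± 0.10) and Plod2 (-0.36 ± 0.10) and the prolyl hydroxylase P4ha2 (-0.24 ± 0.07). Col14a1, Loxl1 and P4ha2 lost their calls with the covariate. The main chain of type I collagen, Col1a1, had 41.3, 45.8 and 56.3 CPM in the lowest, median and highest air rat and 45.5, 47.7, 35.1, 47.1 and 52.9 CPM with silica (-0.05 ± 0.10, adjusted p = 0.74), and the groups overlapped almost fully. P4ha1, Lox, Serpinh1 and Col8a1 were also not called, at -0.08 (Lox) to -0.04 (Serpinh1).

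Other matrix genes moved in both directions, 5 of 19 higher and 8 lower (3 and 7 with the covariate). Thbs2, a matricellular protein that restrains vessel growth, rose from a median of 4.12 CPM to 13.3, 19, 12.3, 15.4 and 17 CPM (1.92 ± 0.18), and fibronectin, Fn1, which macrophages also make, by 0.54 ± 0.09. Periostin, Postn, fell from a median of 423 CPM to 246, 201, 293, 262 and 324 CPM (-0.70 ± 0.09), Ltbp1 by 0.63 ± 0.08 and fibrillin, Fbn1, by 0.46 ± 0.07. Of 16 metalloproteinases and inhibitors 8 rose and 4 fell (5 and 2 with the covariate). Mmp12, the macrophage elastase, had 2.77, 6.06 and 22.0 CPM in the lowest, median and highest air rat and 102, 105, 156, 64.2 and 53.7 CPM with silica (3.51 ± 0.33). Mmp14 rose by 0.98 ± 0.07, Mmp19 by 0.87 ± 0.12 and Timp1 by 0.66 ± 0.15 (not called with the covariate). Mmp7, an epithelial matrilysin, had 5 counts in all air rats and rose by 4.55 ± 0.46 to between 1.90 and 4.79 CPM. TGF-beta and BMP genes were called higher in 8 of 21 and lower in 8 (4 and 7 with the covariate), with a median of -0.14. Among those called higher, Tgfb1 rose by 0.98 ± 0.13 and its receptors Tgfbr1 by 0.94 ± 0.07 and Tgfbr2 by 0.32 ± 0.04.

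Cell division genes rose. Of 21 tested 18 were higher and 1 lower, 16 of the rises without overlap, with a median of 1.18 (14 and 0 with the covariate). Mki67, present in all dividing cells, had 27.3, 35.2 and 39.5 CPM in the lowest, median and highest air rat and 106, 140, 91.8, 103 and 110 CPM with silica (1.66 ± 0.11, adjusted p = 4.1e-12). Top2a rose by 1.23 ± 0.12, the spindle protein Tpx2 by 1.49 ± 0.15 and the replication helicase subunit Mcm5 by 1.6 ± 0.16. Cdk1, the mitotic kinase, rose by 1.18 ± 0.17 and Birc5, which encodes survivin, by 1.33 ± 0.27 (not called with the covariate). Tyms fell by 0.38 ± 0.12, and Pcna (0.17 ± 0.09) and Aurkb (-0.07 ± 0.20) were not called.

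Late cell cycle genes are known to share a promoter element, the cell cycle genes homology region, read here as TTTGAA on either strand, through which the DREAM complex represses them in resting cells. RefSeq promoters of build GRCr8 were searched over the 250 bases before the start. Of the 22 genes of the cell cycle list 17 had an entry. The letters were in 7 of these (Mki67, Top2a, Ccnb2, Cdk1, Cdc20, Birc5 and Mcm2) and not in the other 10 (Ccnb1, Bub1, Bub1b, Aurka, Plk1, Mcm3, Mcm5, Mcm6, Pcna and Tyms). With 5 genes of the list lacking an entry, the share in the list was not tested against that in other promoters. Of the 7, the 3 promoters below were chosen after their matches were seen, Birc5 and Cdk1 for the matches nearest to the start and Mki67 for its level above, with the match in capitals. They lie at chr1:199952594-199952843 on the minus strand (Mki67), chr20:19265043-19265292 on the plus strand (Cdk1) and chr10:103571896-103572145 on the plus strand (Birc5), and each is printed 5′ to 3′ on the strand of its gene.
Mki67: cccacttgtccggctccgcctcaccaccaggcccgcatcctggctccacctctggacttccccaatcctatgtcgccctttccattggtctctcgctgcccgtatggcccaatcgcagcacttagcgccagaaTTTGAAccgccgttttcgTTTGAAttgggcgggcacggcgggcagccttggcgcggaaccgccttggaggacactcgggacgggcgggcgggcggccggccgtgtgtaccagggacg
Cdk1: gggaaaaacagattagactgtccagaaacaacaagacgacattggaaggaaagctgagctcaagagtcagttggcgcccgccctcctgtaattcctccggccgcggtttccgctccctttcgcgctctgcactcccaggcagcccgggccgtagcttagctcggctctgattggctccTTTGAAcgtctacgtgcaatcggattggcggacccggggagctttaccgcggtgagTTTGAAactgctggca
Birc5: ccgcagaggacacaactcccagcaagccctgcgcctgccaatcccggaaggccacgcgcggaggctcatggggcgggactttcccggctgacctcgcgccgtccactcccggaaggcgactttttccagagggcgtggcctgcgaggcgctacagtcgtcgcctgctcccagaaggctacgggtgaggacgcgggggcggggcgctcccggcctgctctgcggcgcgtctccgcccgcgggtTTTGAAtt
The match nearest to the start lies 99 bases before it in Mki67, 16 in Cdk1 and 8 in Birc5, and Mki67 and Cdk1 hold 2 matches each. Over all 33469 promoters 16.2% hold these letters and over the tested genes 11.1%. The motif was chosen after the values were seen, and a match is only a description. Among the panel genes with an entry, the letters GGANTTTCC (NF-kB) were in no promoter (1.08% of all promoters) and the letters TGACNNNGC (antioxidant response) were in that of Cxcl13 (10.1% of all promoters), on either strand.

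Of 19 cholesterol synthesis and uptake genes 15 rose and 0 fell, with a median of 0.35. Sqle rose by 0.71 ± 0.09, Sc5d by 0.59 ± 0.08, Cyp51 by 0.57 ± 0.07 and Idi1 by 0.57 ± 0.07. Cholesterol efflux and oxysterol genes rose in 6 of 15 and fell in 1: the ester-forming Soat1 (0.61 ± 0.08), the ester hydrolase Nceh1 (0.60 ± 0.06) and Apoe (0.85 ± 0.12) rose, and the sterol hydroxylase Cyp27a1 fell by 0.60 ± 0.06. Of 16 fatty acid synthesis genes 11 rose and 1 fell. Fasn, the fatty acid synthase, went from a median of 1290 CPM to 2132, 2729, 2266, 2422 and 1998 CPM (0.82 ± 0.12), Dgat2, which makes triglyceride, rose by 1.06 ± 0.09, Me1 by 0.73 ± 0.09, and the elongase Elovl5 fell by 0.40 ± 0.06. Fatty acid oxidation and PPAR targets rose in 8 of 23 and fell in 2 (6 and 4 with the covariate). Plin2, the coat of lipid droplets, rose by 0.67 ± 0.06 and Cpt1a by 0.34 ± 0.05.

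Type I interferon genes depended on the fit. Of 23 tested 8 rose and 2 fell with a median of 0.19, but with the covariate 1 rose and 1 fell and the median was -0.02, and with total counts 4 rose and 4 fell. Stat2 rose by 0.39 ± 0.06, Ifit3 by 0.85 ± 0.15, Bst2 by 0.90 ± 0.17 and Usp18 by 0.41 ± 0.12, and of these 4 the call of Stat2 alone held with the covariate.

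The largest falls were smaller than the largest rises and came mostly from genes of low level. Dlk1, a Delta-like membrane protein, had 1.08, 5.04 and 10.8 CPM in the lowest, median and highest air rat and 0.35, 0.17, 0.90, 0.79 and 1.35 CPM with silica (-2.91 ± 0.52, adjusted p = 5.7e-05). The highest silica rat lay above the lowest air rat. Kcnmb2, a subunit of calcium-activated potassium channels, fell by 2.34 ± 0.28 from a median of 3.55 CPM. Sh2d7 (-1.84 ± 0.23), Tesc (-1.66 ± 0.23), Sult5a1 (-1.59 ± 0.23), Sytl5 (-1.58 ± 0.19) and Ralyl (-1.51 ± 0.32) also fell without overlap. Serpinb10, a serine protease inhibitor, was the most abundant of those without overlap, with a median of 32.4 CPM in air and 15.1, 9.99, 10.6, 13.5 and 17.6 CPM with silica (-1.34 ± 0.16). Cyr61 fell by 1.52 ± 0.38, and air rat 4 was apart from the other air rats at 166 CPM against a median of 38.7. Fbp1 (-1.70 ± 0.39), Fbxo40 (-1.49 ± 0.33), Rprml (-1.47 ± 0.28), Cux2 (-1.46 ± 0.39), Adh7 (-1.46 ± 0.45) and Wnt2b (-1.37 ± 0.32) fell with overlapping groups. With the covariate Fbp1 moved to -0.29 and was not called, and Rprml and Adh7 were not called.

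The silica effect on the regular diet was compared with that on the high-fat diet at the same age in 12 other rats. The difference of the effects was called in 167 of 15276 genes (1.09%), 83 with the higher value on the regular diet and 84 with the lower. Mmp12 rose less on the regular diet, by 3.51 against 6.14 on the high-fat diet, a difference of -2.63 ± 0.58 (adjusted p = 0.026). The silica rats lay at 96.1 ± 40.4 CPM (SD, n = 5) and 136 ± 15.1 CPM (n = 6), and the air rats at 8.70 ± 6.99 CPM (n = 6) and 2.11 ± 1.94 CPM (n = 6). The difference between the air rats of the diets was not tested. Lcn2 had close silica means of 51.3 and 49.0 CPM, and was at 13.5 ± 1.12 CPM in air on the regular diet and 4.87 ± 1.6 CPM on the high-fat diet (difference -1.43 ± 0.25, adjusted p = 0.0055). Gpnmb (-0.90 ± 0.16), the hexokinase Hk3 (-0.96 ± 0.16), the lipid amidase Naaa (-0.88 ± 0.15), Capn5 (-0.48 ± 0.08), Flvcr2 (-0.40 ± 0.07) and C3 (-0.69 ± 0.15, adjusted p = 0.026) also had the lower effect on the regular diet. The RNA-binding proteins Khdrbs1 (0.65 ± 0.11), Tardbp (0.51 ± 0.09) and Hnrnpa3 (0.35 ± 0.06), with Tbc1d14 (0.53 ± 0.09) and the ubiquitin ligase Nedd4l (0.63 ± 0.11), had the higher one. On the regular diet Khdrbs1 averaged 44.6 CPM (SD 7.0) in the air rats and 69.8 CPM (SD 6.74) in the silica rats, and the high-fat means were 76.9 and 76.6 CPM. For the other panel genes the difference was not called: Spp1 -0.97 ± 0.56, Ccl2 -1.06 ± 0.38, Retnla -0.81 ± 0.38, Hmox1 -0.14 ± 0.10, Mki67 0.16 ± 0.15, Col1a1 0.30 ± 0.14, Sftpc -0.57 ± 0.15 (adjusted p = 0.063), Scgb1a1 0.24 ± 0.20 and Cxcl13 0.40 ± 1.02. With the ribosomal RNA covariate 23 genes were called, and DESeq2 called 342. Of the 13 differences named here as called, 10 lost the call with the covariate and Capn5, Flvcr2 and Nedd4l kept it. Mmp12 was then at -2.77 (adjusted p = 0.12), Lcn2 at -1.41 (0.068), Khdrbs1 at 0.64 (0.073) and C3 at -0.43 (0.40). The share of ribosomal RNA counts was between 4.62% and 7.19% in the high-fat air rats and between 7.29% and 7.85% in the high-fat silica rats. Its part in these differences was not otherwise tested. The call of C3 was also lost without silica rat 4 or 5 of the regular diet (adjusted p = 0.054 and 0.055), and that of Mmp12 without air rat 2 of that diet (0.053) or air rat 3 of the high-fat diet (0.052). Without silica rat 5 of the regular diet 72 were called and without air rat 4 of that diet 274.

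**Figure D5:**
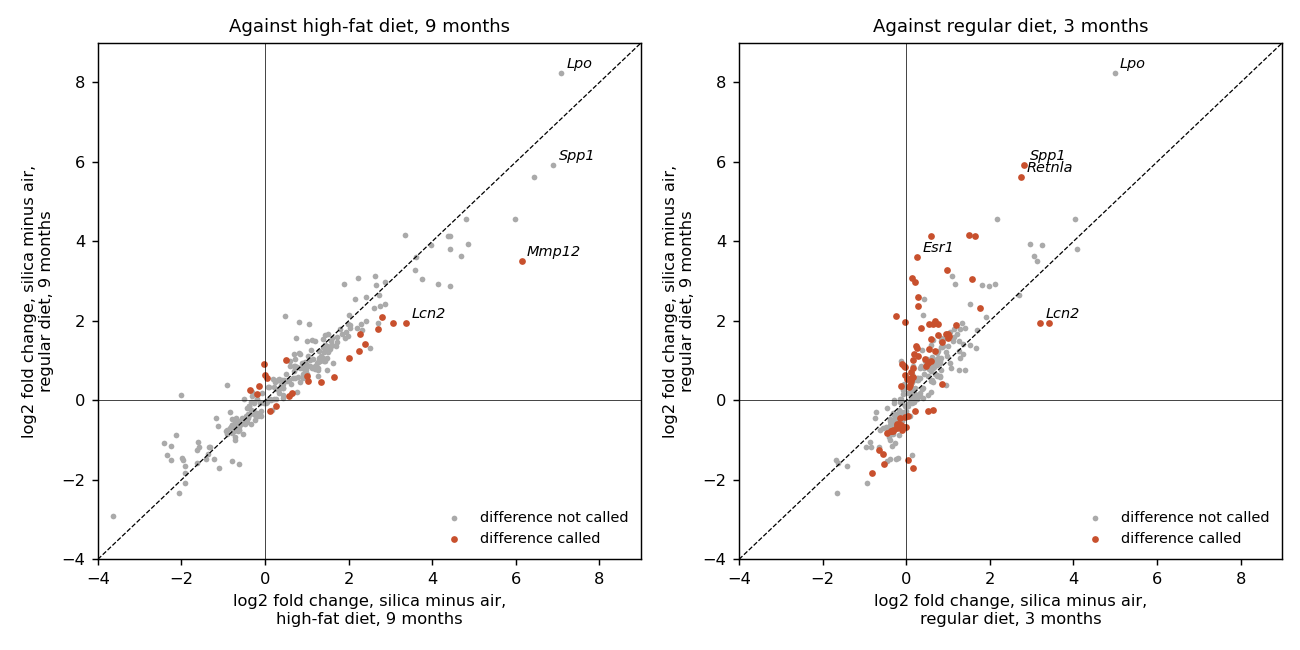
Silica minus air log2 fold change of the named genes on the regular diet at 9 months (vertical axis) against that on the high-fat diet at 9 months (left) and on the regular diet at 3 months (right), with equal effects on the dashed lines and genes whose difference was called in red. Mmp12 and Lcn2 lie below the line on the left, and Spp1, Retnla and Esr1 above it on the right.

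The silica effect on the regular diet at 9 months was also compared with that at 3 months. The difference of the effects was called in 1068 of 15759 genes (6.78%), 584 with the higher value at 9 months and 484 with the lower, against 9 rats sampled at 3 months. At 3 months Spp1 averaged 2.68 CPM in the 4 air rats (SD 0.40) and 19.6 CPM in the 5 silica rats (SD 12.4), and its effect was 3.1 ± 0.82 larger at 9 months (adjusted p = 0.016). Retnla was 2.87 ± 0.52 larger (adjusted p = 6.2e-04), Hmox1 0.69 ± 0.19 (adjusted p = 0.022) and Mki67 0.71 ± 0.16 (adjusted p = 0.0040). The gene with the smallest p was Esr1, whose effect at 3 months was 0.26 (adjusted p = 0.49) and at 9 months 3.35 ± 0.30 larger (adjusted p = 1.4e-09). Ncf1 (1.47 ± 0.18), Col16a1 (1.15 ± 0.14), Hhip, a decoy receptor of hedgehog ligands (0.92 ± 0.12), and Tmtc1 (0.81 ± 0.10) followed.

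Lcn2 differed in the other direction. At 3 months it averaged 7.75 CPM in the air rats (SD 2.18, n = 4) and 71.1 CPM in the silica rats (SD 6.92, n = 5), and its effect was 1.27 ± 0.27 smaller at 9 months (adjusted p = 0.0029). Gpt (-0.81 ± 0.11) and Kifc2 (-0.89 ± 0.13) rose with silica at 3 months, by 0.52 and 0.65, and fell at 9 months, as did Cadps2 (-0.49 ± 0.08), with a rise of 0.21 at 3 months. Pxdc1 (-0.63 ± 0.09) and Mxra8 (-0.65 ± 0.10) fell at 9 months and were not called at 3 months. The difference was not called for C3 (0.19 ± 0.15), Ccl2 (0.56 ± 0.43), Mmp12 (0.39 ± 0.48), Col1a1 (-0.16 ± 0.18), Sftpc (-0.40 ± 0.16), Scgb1a1 (0.26 ± 0.25) and Cxcl13 (2.11 ± 1.09). Time, age and the table of counts changed together and cannot be told apart. The ribosomal RNA share at 3 months was 0.988% to 1.66% in the air rats and 0.635% to 1.43% in the silica rats of the regular diet. These ranges overlap, unlike those at 9 months, and the part of the share in the time difference was not otherwise tested. With the ribosomal RNA covariate 77 genes were called, and without air rat 4 of the 3-month group 667 were. Of the 15 differences named as called, the covariate removed 5: Spp1 (2.84, adjusted p = 0.16), Lcn2 (-1.15, 0.12), Hmox1 (0.69, 0.21), Mki67 (0.59, 0.18) and Cadps2 (-0.36, 0.068). Without air rat 4 of the 3-month group Spp1 (adjusted p = 0.063) and Hmox1 (0.097) lost their calls, as did Hmox1 without air rat 2 of that group (0.10).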

How the data were processed

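Whole-lung RNA of 42 rats was sequenced from stranded total RNA libraries after ribosomal RNA removal, and the 11 rats of the regular diet sampled at 9 months form the comparison. The deposited values are raw read counts per gene; the submitters' processing notes list HTSeq 0.6.1, SAMtools 0.1.19, TopHat2 2.0.9 with Bowtie2 2.2.9, Trimmomatic 0.35, bcl2fastq 2.19 and the genome build Rnor 6.0. The strand setting of the counting is not given in the sources used here, so overlapping and antisense genes are uncertain. No row named no gene (0 rows), and 0 columns lacked a sample.

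Counts were analysed with edgeR 4.0.16 (quasi-likelihood F test, TMM scaling, filterByExpr) in R 4.3.3 over the 4 groups and 23 rats of the 9-month table, with Benjamini-Hochberg adjustment over 15276 of 30045 genes and calls below 0.05. The diet difference used the same fit, and the time difference a joint fit of 42 rats over 15759 genes. CPM are counts divided by the library total after TMM scaling, fold changes are silica minus air on the log2 scale, and adjusted p-values are from edgeR unless another tool is named. Alternatives were DESeq2 1.42.0, limma 3.58.1 voom, RLE and total-count scaling, removal of Rnr1 and Rnr2, no filter, the 2 groups alone, the ribosomal RNA share as a covariate, and leaving out each rat. The scripts were tested on simulated counts. No pair of libraries within a group was identical (0 of 25), and the lowest chi-square per degree of freedom between them was 3.30, so each rat counted as 1 sample.

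The rule for named genes took, among called genes with a mean log2 CPM of at least 1 and a regular symbol, the 15 largest rises and 15 largest falls, the 4 members of each described list with the smallest p, every member of the ELR chemokine, complement, collagen, B cell and follicle lists, a fixed panel, and the 5 genes per direction with the smallest p in each difference. Some genes that the rule takes are not reported here, though list counts and sums include them. Other genes named were chosen after their values were seen. The lists, members and panel were chosen with earlier results of these data known. Labels describe separate rats and give no batch or date.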

Additional observations from a re-analysis of the deposited data

Results flagged for a closer look

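In 33 of 582 sets of values (1 named gene or the ribosomal RNA share in 1 of the 2 groups), 1 rat stood apart from the rest of its group, a share close to the 1 in 20 that chance gives. Among air rats these were, in CPM, Adh7 (9.13) and Cd177 (6.52) in rat 1, S100a9 (215.5), Ccr1 (29.6), Cyp27a1 (42.6), Flvcr2 (96.7) and Hepacam2 (4.69) in rat 2, Kng1 (13.8), C3 (797), Marco (0.649) and C9 (13.2) in rat 3, Cyr61 (166) and Lbp (28.3) in rat 4, Pax5 (3.45), Tppp3 (358), Dnai1 (9.49), Col5a2 (340.1) and Aurkb (25.03) in rat 5 and Pigr (1580) in rat 6. Among silica rats they were Pf4 (81.7), Ppbp (2.94), Cr2 (22.3) and Gclm (48.5) in rat 1, Creld2 (46.0003) and Cdk1 (12.9) in rat 2, Lbp (69.5), S100a9 (1111), Cxcr3 (5.69), Cd4 (61.0) and Cyp51 (90.6) in rat 3, Cfp (34.8) in rat 4 and Sytl5 (2.90) and Mcm5 (11.2) in rat 5.

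The silica effect differed between the diets at 9 months in 13 of the genes examined, by the test of the difference itself. The ribosomal RNA covariate removed 10 of these calls, and leaving out 1 rat removed those of C3 and Mmp12. On the log2 scale, regular minus high-fat diet, it was -2.63 for Mmp12, -1.43 for Lcn2, -0.96 for Hk3, -0.90 for Gpnmb, -0.88 for Naaa, -0.69 for C3, -0.48 for Capn5 and -0.40 for Flvcr2, and 0.65 for Khdrbs1, 0.63 for Nedd4l, 0.53 for Tbc1d14, 0.51 for Tardbp and 0.35 for Hnrnpa3. It differed between 9 and 3 months in 15, of which the covariate removed 5 calls and leaving out 1 rat those of Spp1 and Hmox1. The value, 9 minus 3 months, was 3.35 for Esr1, 3.1 for Spp1, 2.87 for Retnla, 1.47 for Ncf1, 1.15 for Col16a1, 0.92 for Hhip, 0.81 for Tmtc1, 0.71 for Mki67 and 0.69 for Hmox1, and -1.27 for Lcn2, -0.89 for Kifc2, -0.81 for Gpt, -0.65 for Mxra8, -0.63 for Pxdc1 and -0.49 for Cadps2.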

How the results depend on the processing

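Other scalings, DESeq2, voom, no filter and the 2 groups alone gave between 6024 and 7262 called genes against 6885, and leaving out 1 rat gave 6068 to 6825. Calls higher ran from 3353 to 3668 and calls lower from 2715 to 3169 in those leave-one-out fits. With the ribosomal RNA covariate 3870 were called, 2139 higher and 1731 lower, 3651 of them among the 6885. Total counts gave 36.9% of calls higher against 54.2%. The diet difference (167 genes) was 342 with DESeq2, 23 with the covariate and 72 to 274 over rats left out. High-fat air rats 1, 2 and 3 (90, 104, 85), high-fat silica rats 1, 3, 5 and 6 (273, 108, 80, 107) and regular-diet air rats 2 and 4 (103, 274) and silica rats 4 and 5 (88, 72) each moved it by over 1.5 times. The time difference (1068) was 77 with the covariate and 667 to 1338 over rats left out, 667 without 3-month air rat 4. The difference in ribosomal RNA share stayed between 2.03 and 2.71 percentage points over rats left out (exact permutation p from 0.0048 to 0.0095).

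Of 290 named genes 257 were called, and no called gene changed direction in any fit run. The covariate removed 41 calls, total counts 9, voom 3, DESeq2 2, no filter 2 and the 2 groups alone 1. Leaving out 1 rat removed calls of 13: Il4r, Ccl19, Cxcr5, Upk1b, Klrk1, Pou2af1, Col14a1, Gzmk, Dnah9, Kifc2, Nedd4l, Flvcr2 and Pou2f3, up to 10 at once (without silica rat 2). Genes that were not called changed sign in some fits. With the covariate C7 was at -0.043, Tnfsf13b 0.091, S1pr2 0.087, Lox 0.023, Col8a1 0.12 and Aurkb 0.048. With total counts C7 was at -0.066, Fcrla -0.038, Ms4a1 -0.049, Pax5 -0.062, Ltbr -0.054, Mybl1 -0.075 and Gclm -0.048. With voom Cr2 was at -0.064, Ms4a1 -0.22, Mybl1 -0.0031, S1pr2 0.0045, Gclm -0.023 and Gnb3 0.049. Pax5 was at -0.031 with DESeq2, Mybl1 -0.0038 without Rnr1 and Rnr2, and S1pr2 0.00047 with edgeR's older dispersion method. Over rats left out the ranges were Col1a1 -0.10 to 0.038, Pf4 -0.16 to 0.58, Ppbp -0.60 to 0.73, C7 -0.032 to 0.069, Spib -0.39 to 0.029, Cr2 -0.35 to 0.25, Fcrla -0.0086 to 0.15, Ms4a1 -0.30 to 0.29, Pax5 -0.15 to 0.41, Ccr7 -0.055 to 0.32, Mybl1 -0.043 to 0.072, S1pr2 -0.066 to 0.061, Serpinh1 -0.089 to 0.038, Col8a1 -0.15 to 0.016, Aurkb -0.25 to 0.051 and Gclm -0.24 to 0.14. The cause of these changes was not tested. No paired analysis was possible because the rat tags are not shared between groups. At these depths genes with under about 20 counts in a group rest on few reads.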

Other observations

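Several genes of tuft cells, the chemosensory cells of the airway also called brush cells, were lower in silica lungs. They were picked after Sh2d7 appeared among the largest falls, so their number is a description without a test. The taste channel Trpm5 had 13.2, 13.6 and 15.4 CPM in the lowest, median and highest air rat and 6.93, 5.34, 5.09, 4.88 and 7.34 CPM with silica, a fall of 1.25 ± 0.13 on the log2 scale (adjusted p = 1.2e-08 by edgeR's quasi-likelihood test), without overlap. Avil, an actin-binding protein of tuft cells, fell by 0.73 ± 0.15, Hepacam2 by 1.17 ± 0.27 and the taste G protein Gnat3 by 2.09 ± 0.50, the last from 47 counts in the air rats to 9 in the silica rats. The tuft cell transcription factor Pou2f3 fell by 1.05 ± 0.35, a call lost with the ribosomal RNA covariate and without silica rat 2 or silica rat 3. Dclk1 (-0.15 ± 0.11), Gnb3 (-0.29 ± 0.45) and Gng13 (-0.44 ± 0.39) were not called.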
